A study of Mus musculus with 2 samples.

Results

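The 10 genes described here form the core of the mammalian circadian clock: the activators Clock and Arntl (newer name Bmal1), the repressors Per1, Per2, Per3, Cry1 and Cry2, the nuclear receptors Nr1d1 and Nr1d2, and the output factor Dbp. They were found as the probes whose gene name in the array files equals a member, which gave 18 probes for all 10 genes, among 41174 non-control probes for 27577 gene names. The genes were chosen because Mybbp1a has been reported as a partner of CRY1 at the Per2 promoter, though earlier results of these data were known. The cells were C2C12, a mouse myoblast cell line (strain C3H, leg muscle, adult), and expression was compared between stable clones carrying a short hairpin RNA against Mybbp1a and stable clones carrying a control hairpin. All cells grew in serum-rich medium below confluence, each RNA came from a mixture of clones, and a harvest time or a step that synchronises the clock is not given in the sources used here. The data were 2 two-colour arrays, described as biological replicates, and on each of them knockdown RNA was read in Cy5 and control RNA in Cy3. Dye and genotype therefore cannot be told apart, and neither can slide and replicate. The labels do not say that the replicates were separate cultures, so the spread between these arrays may be technical. The limma p-values rest on that spread, moderated over all tested probes. Feature Extraction's p-values are single-array values and measure no spread between arrays.

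In the clock, CLOCK and ARNTL bind E-box elements together and activate Per, Cry, Nr1d and Dbp genes. PER and CRY proteins return to the nucleus and repress that activity, and the NR1D receptors repress Arntl in a second loop in which ROR receptors act as activators. DBP, with its relatives TEF and HLF, drives D-box elements and is opposed by NFIL3. In muscle the clock is known to time metabolic genes, and in cultured cells a serum pulse sets it through an early burst of Per1 and Per2. A population that was not synchronised holds cells at all phases, so that bulk levels average over them.

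The probes decide what is seen, and 5 of the 10 genes were measured by more than 1 probe. Positions below are those of the array files, on mouse build mm8. Exon and UTR annotation of that build was not used here. The sequences are shown for the probes of Per2, Clock and Nr1d1 because these probes gave unlike ratios within a gene. Those nearest the 3′ end are given by their first 30 bases for Per2 and Clock, as is the Clock probe that rests on a pituitary cDNA, and the others are given whole. The files list all of them on the minus strand.
Per2 A_51_P282760 (chr1:93246875-93246934): acctttcacagtgatcaggtagtagccatg
Per2 A_52_P536869 (chr1:93270367-93270426): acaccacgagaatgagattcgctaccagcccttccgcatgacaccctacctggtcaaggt
Clock A_52_P334670 (chr5:77287127-77287186): ttcccatttgagttgctcttgtaatatttt
Clock A_52_P334677 (chr5:77287523-77287582): ccgtttttaaaggatccctaatcatcactt
Clock A_52_P279391 (chr5:77310328-77310387): tggtggacccttactagaaagaatcacaga
Clock A_52_P161365 (chr5:77329160-77329219): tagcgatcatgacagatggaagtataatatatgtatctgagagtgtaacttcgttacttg
Nr1d1 A_51_P223776 (chr11:98585302-98585804): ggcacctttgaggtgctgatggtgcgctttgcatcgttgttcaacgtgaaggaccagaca
The Nr1d1 positions span 503 bp, more than the 60 bases of the probe. The other Nr1d1 probes, A_52_P130952 and A_52_P130961, lie 2.8 and 3.3 kb farther from the 3′ end. The remaining probes were A_52_P79889 for Per1, A_51_P258493 for Per3, A_52_P267651 for Arntl, A_52_P303891 for Nr1d2 and A_51_P180492 for Dbp, with a pair each for Cry1 and Cry2.

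Each array held 45018 spots. In Cy5 the spots had a median signal of 302 (array 1) or 427 (array 2) before background subtraction, beside a median background of 52. In Cy3 the median signal was 148 or 176, beside a background of 44. Spots well above background made up 63.4% to 64% on array 1 and 71.3% to 78% on array 2. Ratios below are log2 of knockdown over control after loess normalization within each array, and levels are normalized log2 signals per channel, which can be compared between channels and arrays for a probe but not between probes. The 169 tested probes that were spotted 10 times varied over their spots with a median SD of 0.06 (array 1) and 0.04 (array 2), while the median difference between the arrays over all 27006 tested probes was 0.15. The number of arrays, 2, limits the precision. The myoblast markers were all tested, and each of the 7 was well above background in both channels on both arrays. Of 16 markers of fat, endothelial, blood and neural cells, 6 were not well above background, among them Adipoq, Pecam1 and Ptprc. Mean ratios of the named markers were 0.40 for Myf5, 0.31 for Cdh15 (-0.14 and 0.75 on the arrays), 0.16 for Itga7 and -0.49 for Tubb3. Of the 7 myoblast markers, 4 were above 0 on both arrays and 1, Chrna1, named after its value was seen, was below at -0.06 and -0.23. As the mean over its probes Chrna1 stood at 0.04. Median centring put it at 0.38, or 0.17 relative to the median of all genes there. Mean ratios were 0.86 for Cdh5, read above background in the control channel of 1 array, and 0.18 for Tek. For Csf1r and Cd68 they were 0.28 and 0.016, and for Fabp4 and Pparg -0.08 and -0.05. Their part in the results below was not tested. Mybbp1a had a log2 ratio of -1.64 in array 1 and -1.91 in array 2, a mean of -1.78 ± 0.19 (SD, n = 2), 3.42-fold lower, at an adjusted p of 0.137 in limma.

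Of the 18 clock probes, 17 were well above background in both channels on both arrays, and none of the 18 was saturated. The exception was the Cry2 probe A_51_P135542, which was not well above background in either channel of array 1 and was not tested. With a Benjamini-Hochberg adjusted p of 0.05 in limma, 0 of 17 clock probes were called, and 0 of all 27006 probes (0%). Limma on Feature Extraction's processed signals also called 0 in both. At an unadjusted limma p under 0.05 there were 4 higher clock probes, of Per2, Dbp, Cry2 and Nr1d1, against 12.7% of all probes, and 2 lower, both of Clock, against 9.09%. A log2 ratio of at least 1 on both arrays in the same direction was reached by 0 of 17 clock probes, against 0.511% of all probes on the higher side and 0.037% on the lower. Median centring in place of loess called 5 clock probes higher and 0 lower, against 16.1% and 0.448% of all probes, while it moved the median over all genes from 0.03 to 0.21. With Feature Extraction's own p-value under 0.01 on both arrays, 1 clock probe was higher (Per2, against 2.71%) and 1 was lower (Clock, against 0.992%). With 2 arrays, limma had 1 residual degree of freedom, while the smallest exact two-sided p that turning the signs of both ratios allows is 0.5.

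**Figure D1:**
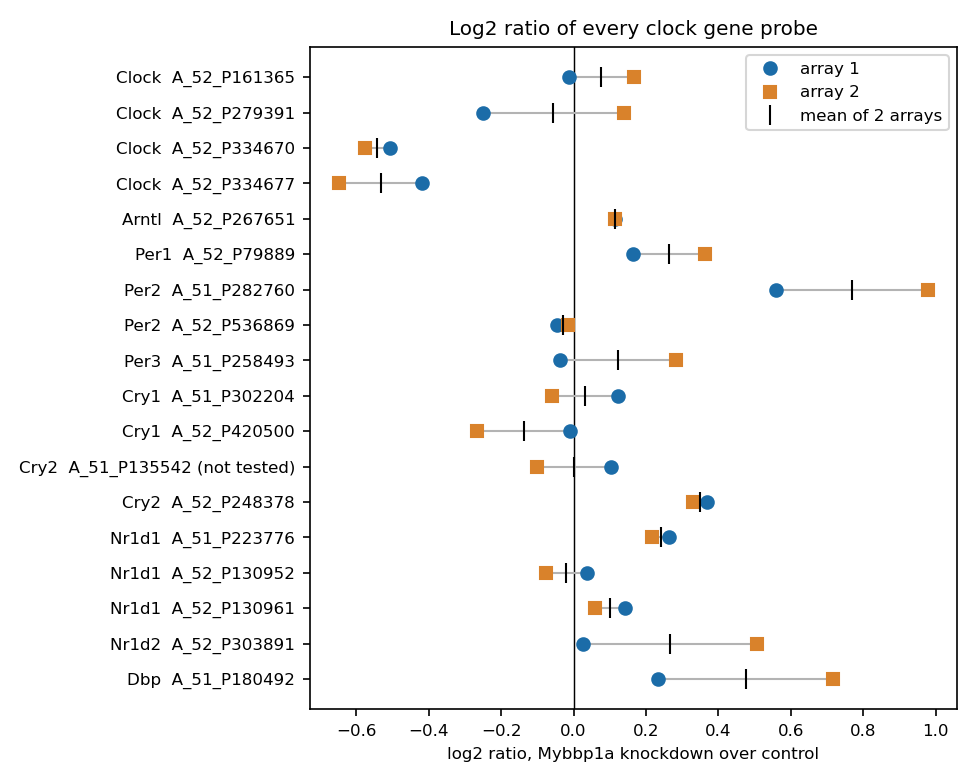
Log2 ratio of knockdown over control (x axis) for each of the 18 clock probes (y axis), with array 1 as circles, array 2 as squares and their mean as a bar. Per2 A_51_P282760 lies farthest to the right at 0.56 and 0.98, and the Clock probes A_52_P334670 and A_52_P334677 lie farthest to the left.

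Taking the brightest tested probe of each gene, 7 of the 10 clock genes were above 0 on both arrays (against 40.6% of all 18068 tested genes) and 2 were below 0 on both (against 29.4%). At the probe level 8 of 17 were above 0 on both arrays (against 37.9% of all probes), 4 below (against 32.1%) and 5 of opposite sign. The genes above 0 were Per2, Dbp, Cry2, Nr1d2, Per1, Nr1d1 and Arntl, those below were Cry1 and Clock, and Per3 had opposite signs. The median log2 ratio of the 10 genes was 0.25 (0.14 by array 1, 0.31 by array 2), beside a median of 0.03 over all genes. In descending order the mean ratios were those of Per2, Dbp, Cry2, Nr1d2, Per1, Nr1d1, Per3, Arntl, Cry1 and Clock. The ranges over the arrays overlapped for 7 of the 9 neighbouring pairs in that order. They did not overlap between Arntl and Cry1 or between Cry1 and Clock. Under median centring Cry1 turned to 0.07, and relative to the median of all genes under that setting none of the 10 genes turned.

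**Figure D2:**
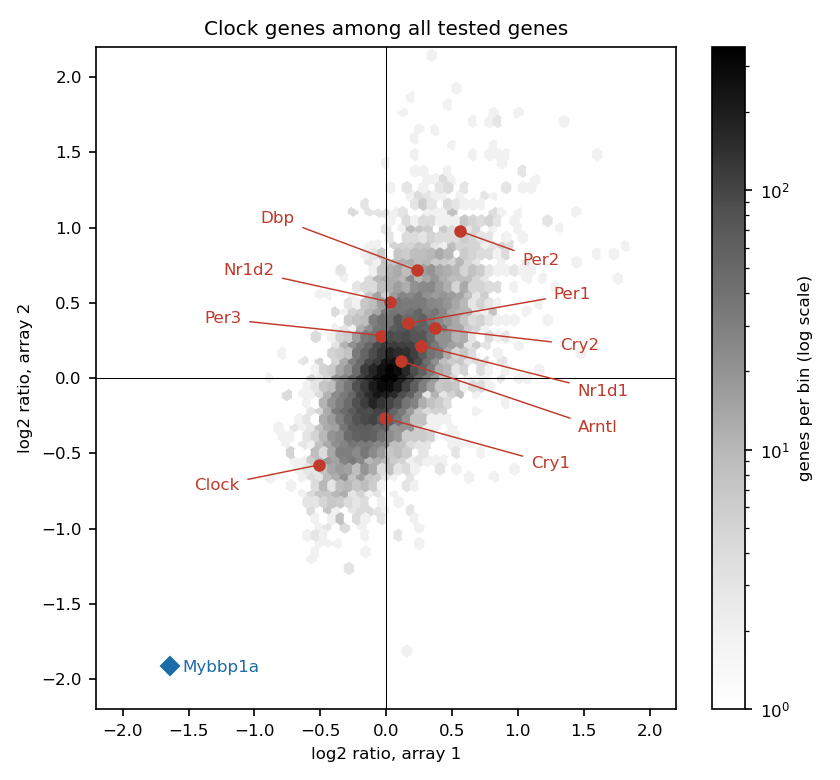
Log2 ratio on array 1 (x axis) against array 2 (y axis) for all 18068 tested genes, as counts per bin on a log scale, with the 10 clock genes as red points and Mybbp1a as a blue diamond. The clock genes lie within the main cloud, with Per2 at its upper right edge and Clock at its lower left, and 85 genes outside 2.2 on either axis are not drawn.

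Among the activators, Clock encodes the histone acetyltransferase and bHLH-PAS partner of ARNTL, and its most intense probe gave the lowest ratio of the 10 genes. Probe A_52_P334670 had control levels of 13.69 on array 1 and 13.49 on array 2, and knockdown levels of 13.18 and 12.91. Control and knockdown values did not overlap. That reading sets 2 values beside 2, and the share of all tested genes showing it was not counted, for Clock or for the genes below. The log2 ratio was -0.51 and -0.58, a mean of -0.54 ± 0.05 (SD, n = 2), 1.46-fold lower, with a limma adjusted p of 0.154. Among all tested genes that mean stood at rank 327 from the lowest. The mean over all Clock probes was -0.26, and median centring put A_52_P334670 at -0.23, or -0.44 relative to the median of all genes there. Probe A_52_P334677, 0.4 kb away, had -0.42 and -0.65 (adjusted p 0.160 in limma).

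The other Clock probes read differently. A_52_P161365, 42.0 kb toward the 5′ end, had -0.01 and 0.17, and A_52_P279391, 23.2 kb toward the 5′ end, had -0.25 and 0.14. A_52_P161365 exceeded A_52_P334670 by 0.50 in array 1 and by 0.74 in array 2, on average by 0.62 ± 0.17 (SD, n = 2). Of 6137 genes with at least 2 tested probes, 4.16% had means that spread as widely as those of Clock, and the median spread was 0.18. The 4 Clock probes have a GC content of 35.0% or 36.7%. Which transcripts each of them reads was not tested. Feature Extraction's p-values for A_52_P334670 were 0.0097 and 0.0040.

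Arntl, the partner of CLOCK and the only single gene in the core loop without which mice lose their rhythm, was nearly the same on both arrays. Its probe (chr7:113104645-113104704) had control levels of 11.41 and 11.40 and knockdown levels of 11.53 and 11.52. These did not overlap either. The ratio was 0.11 on both arrays, 1.08-fold, with an SD under the spread of repeated spots and a limma adjusted p of 0.482. Relative to all genes under median centring it stood at 0.17.

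Among the repressors, Per2 had the highest ratio of all 10 genes, and it had it by 1 of its probes. A_51_P282760 had control levels of 8.90 on array 1 and 8.05 on array 2, and knockdown levels of 9.46 and 9.03. Both knockdown values lay above both control values. The log2 ratios were 0.56 and 0.98, a mean of 0.77 ± 0.30 (SD, n = 2), 1.70-fold higher, with a limma standard error of 0.14 and an adjusted p of 0.158. Per2 stood at rank 545 from the highest among all tested genes. Feature Extraction gave this probe p-values of 0.0085 and 9.4e-07 on the arrays.

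The second Per2 probe showed no such difference. A_52_P536869, 23.5 kb toward the 5′ end, had control levels of 7.99 and 8.67 and knockdown levels of 7.95 and 8.65, for log2 ratios of -0.04 and -0.02 (adjusted p 0.864 in limma). The probes differed by 0.60 in array 1 and by 0.99 in array 2, on average by 0.80 ± 0.28 (SD, n = 2), and 1.66% of the genes with at least 2 tested probes had a spread as large. From array 1 to array 2 the control level of A_51_P282760 was lower and that of A_52_P536869 higher. The knockdown levels moved the same ways, from 9.46 to 9.03 and from 7.95 to 8.65. The probes thus ran opposite ways between the arrays in both channels. Their GC contents were 38.3% and 55.0%. The mean over both probes put Per2 at 0.37.

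Per1, the period gene that responds fastest to serum and cyclic AMP, was measured by 1 probe (chr11:68925571-68925630). It had control levels of 10.58 and 10.25 and knockdown levels of 10.75 and 10.61, and both knockdown values lay above both control values. The ratios were 0.16 and 0.36, a mean of 0.26 ± 0.14 (SD, n = 2), with an adjusted p of 0.240 in limma. Per3, which is dispensable for the basic rhythm, stood at -0.04 in array 1 and at 0.28 in array 2, averaging 0.12 ± 0.23 (SD, n = 2). Its control levels of 8.21 and 8.03 overlapped its knockdown levels of 8.17 and 8.31.

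The cryptochromes, the strongest repressors of CLOCK and ARNTL, were apart. For Cry2 the tested probe A_52_P248378 (chr2:92205045-92205104) had control levels of 8.52 and 8.27 and knockdown levels of 8.89 and 8.60, which did not overlap. Its ratio was 0.37 and 0.33, a mean of 0.35 ± 0.03 (SD, n = 2), 1.27-fold, with an adjusted p of 0.171 in limma. The dim Cry2 probe had 0.10 and -0.10. For Cry1, the reported partner of Mybbp1a, probe A_52_P420500 (chr10:84561785-84561844) had -0.01 and -0.27 and probe A_51_P302204 (chr10:84573549-84573608) had 0.12 and -0.06. The control levels of A_52_P420500 were 9.45 and 8.80 and its knockdown levels 9.44 and 8.53, so that the arrays differed more than the cells. The 2 Cry1 probes differed by 0.17 ± 0.05 (SD, n = 2), close to the median spread of genes with several probes.

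**Figure D3:**
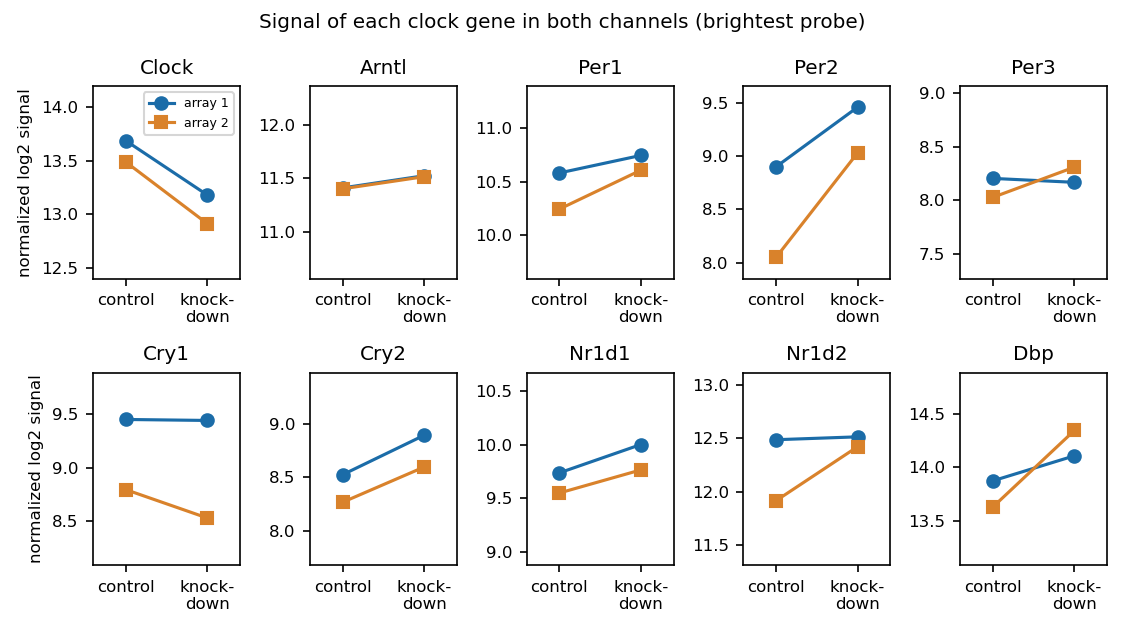
Normalized log2 signal (y axis, each panel spanning the same 1.8 units) in control and knockdown RNA for the brightest tested probe of each clock gene, with array 1 as circles and array 2 as squares, joined within an array. The lines of Per2, Cry2, Nr1d1, Per1, Dbp, Arntl and Nr1d2 go up on both arrays, and those of Clock and Cry1 go down on both. On array 1 those of Nr1d2 and Cry1 are almost flat. The lines of Per3 cross.

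The NR1D receptors, also called REV-ERB, repress Arntl through ROR elements. Nr1d1 probe A_51_P223776 had control levels of 9.74 and 9.55 and knockdown levels of 10.004 and 9.77. Every knockdown level lay above every control level. The ratios were 0.26 and 0.22, a mean of 0.24 ± 0.03 (SD, n = 2), with an adjusted p of 0.229 in limma. Its other probes had 0.04 and -0.08 (A_52_P130952) and 0.14 and 0.06 (A_52_P130961). The order of the 3 Nr1d1 probes was the same on both arrays, and 32.5% of genes with several probes had means that spread as widely. The mean over the 3 probes was 0.11. From array 1 to array 2 the control level of A_52_P130961 went from 8.03 to 9.35, while that of A_51_P223776 went from 9.74 to 9.55. The knockdown levels moved the same ways, from 8.17 to 9.41 and from 10.004 to 9.77. Nr1d2 (chr14:16997805-16997864) had control levels of 12.49 and 11.92 and knockdown levels of 12.51 and 12.42, which overlapped. Its ratio of 0.03 in array 1 and 0.51 in array 2 averaged 0.27 ± 0.34 (SD, n = 2), so that array 2 alone carried it.

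Dbp, a PAR bZIP transcription factor and a direct output of CLOCK and ARNTL, had the second highest ratio. Its probe (chr7:45577937-45577996) had control levels of 13.87 and 13.63 and knockdown levels of 14.11 and 14.35, with no overlap. Its log2 ratio of 0.23 in array 1 and 0.72 in array 2 averaged 0.48 ± 0.34 (SD, n = 2), 1.39-fold higher, with an adjusted p of 0.204 in limma. Feature Extraction's p-value was 0.160 on array 1 and 0.00063 on array 2. Without array 2 the ratio was therefore 0.23, below its mean of 0.48.

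**Figure D4:**
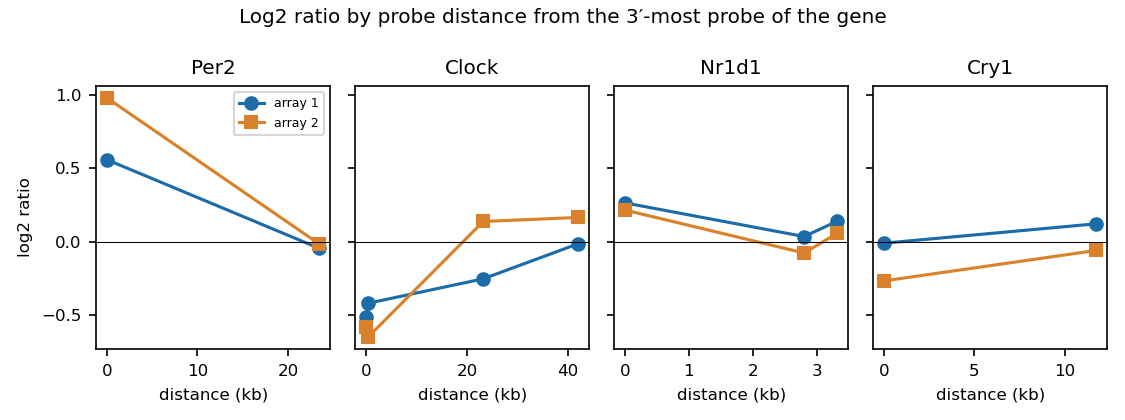
Log2 ratio (y axis) by distance in kb from the 3′-most probe (x axis) for the clock genes with more than 1 tested probe, array 1 as circles and array 2 as squares. The 3′ probe of Per2 stands at 0.56 and 0.98 and the probe 23.5 kb away near 0, while in Clock the lowest ratios are those of the pair at the 3′ end.

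Other genes of the clock loops were read from a list of 13, of which 12 were tested. Of these, 8 were above 0 on both arrays (66.7%, against 40.6% of all genes) and 0 were below (against 29.4%), 4 had opposite signs, and 0 passed the adjusted threshold in limma. At an unadjusted p under 0.05 there were 2 higher and 0 lower (against 14.3% and 8.06% of all genes), and the list's median was 0.20 (0.13 by array 1, 0.27 by array 2). Tef, a PAR bZIP relative of Dbp, had 0.22 and 0.65, and 0.16 as the mean over its probes. Rora had 0.18 and 0.35, with the control channel well above background on 1 array. Median centring put Rora at -0.0027, and Feature Extraction's processed signals at 1.18. Of the 12 genes, 3 turned under median centring and 4 relative to the median of all genes there.

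Kinases and ubiquitin enzymes set the life of PER and CRY proteins. Of 20 such genes, all tested, 9 were above 0 on both arrays (45.0%, against 40.6%) and 5 below (against 29.4%), with a median of 0.09. The share above 0 was close to that of all genes. Unadjusted p-values under 0.05 numbered 3 higher (against 14.3%) and 1 lower (against 8.06%), and 0 were called. Usp2, a deubiquitinase that is itself a clock output, had 0.43 and 0.63, a mean of 0.53 ± 0.15 (SD, n = 2). Feature Extraction's processed signals put Usp2 at 1.05. Median centring put it at 0.48, or 0.27 relative to the median of all genes there. Csnk1d, the kinase that marks PER for degradation, had 0.26 and 0.61, and Csnk2a2, a catalytic subunit of casein kinase 2, had 0.28 and 0.35. Adjusted p-values in limma were 0.159, 0.187 and 0.184 for these genes. As the mean over their probes Csnk1d stood at 0.092 and Csnk2a2 at 0.093.

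Cofactors and chromatin enzymes reported with PER and CRY, or with CLOCK and ARNTL, lay on both sides of 0. Of 15 genes, 4 were above 0 on both arrays (26.7%, against 40.6% of all genes) and 5 below (33.3%, against 29.4%), and the median was -0.12. Unadjusted p-values under 0.05 numbered 1 higher (against 14.3%) and 2 lower (against 8.06%), and 0 were called. Sfpq, an RNA-binding partner of PER, had -0.28 and -0.44, Kdm5a, a histone demethylase that acts with CLOCK and ARNTL, had 0.21 and 0.30, and Suv39h1, an H3K9 methyltransferase, had -0.20 and -0.29. Median centring put Sfpq at 0.06 and Suv39h1 at 0.02, and turned 9 of the 15 genes and the median, to 0.29. Relative to the median of all genes there, 3 of the 15 turned, Sfpq stood at -0.15 and Suv39h1 at -0.19. As the mean over its probes Sfpq stood at -0.11.

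Genes known as clock outputs in muscle or fibroblasts were spread widely. Of 13, 5 were above 0 on both arrays (38.5%, against 40.6% of all genes) and 6 below (46.2%, against 29.4%), with a median of -0.11. At an unadjusted p under 0.05 there were 3 higher (against 14.3%) and 2 lower (against 8.06%), with 0 called. Cirbp, a cold-inducible RNA-binding protein, had 1.02 and 0.98, a mean of 1.00 ± 0.03 (SD, n = 2), 2.00-fold, at an adjusted p of 0.140 in limma. Noct, a rhythmic phosphatase also known as nocturnin, had -0.49 and -0.79, and Tsc22d3, a glucocorticoid-induced gene, had 0.48 and 0.43, with 0.24 as the mean over its probes. Wee1, a mitotic kinase under E-box control named after its value was seen, had -0.23 and -0.29, opposite in sign to Dbp and Per1. The outputs thus lay on both sides of 0.

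Immediate early genes, which serum and cyclic AMP induce along with Per1 and Per2, were read as a further list. Of 13, 10 were above 0 on both arrays (76.9%, against 40.6%) and 2 below (15.4%, against 29.4%), and the median was 0.15 (0.14 by array 1, 0.13 by array 2). Unadjusted p-values under 0.05 numbered 4 higher (against 14.3%) and 0 lower (against 8.06%), and 0 were called. Nr4a1, an orphan nuclear receptor, had 0.56 and 0.94, values near those of the 3′ probe of Per2. Fos, a subunit of AP-1, had 0.25 and 0.78, and Egr1, a zinc finger factor, had 0.04 and 0.78. Adjusted p-values in limma were 0.158, 0.20 and 0.336. Their part in the values of Per1 and Per2 was not tested.

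**Figure D5:**
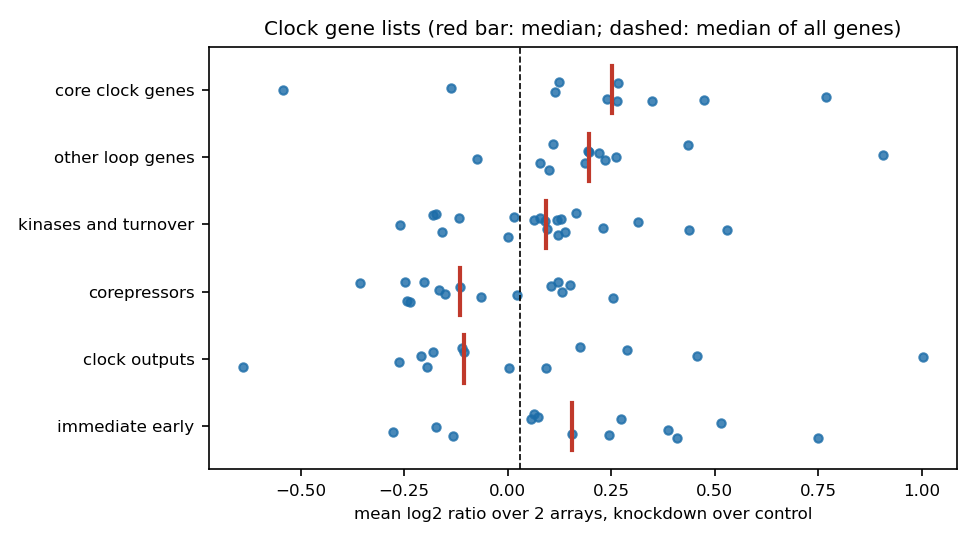
Mean log2 ratio over 2 arrays (x axis) for every tested gene of each list (rows, points spread vertically for legibility), with the list's median as a red bar and the median of all genes, 0.03, as a dashed line. The medians are 0.25 for the core clock genes, 0.20 for the other loop genes and 0.15 for immediate early genes, against -0.12 for corepressors and -0.11 for clock outputs.

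Commonly used reference genes gave a scale for these values. Hprt had a mean ratio of -0.03, Tbp -0.05, Actb -0.12 and Ppia -0.23, and all of them turned above 0 under median centring, at 0.43, 0.19, 0.27 and 0.21. Relative to the median of all genes there they stood at 0.22, -0.02, 0.06 and 0.00027. Rplp0 had 0.42, with 0.59 and 0.26 on the arrays, 0.26 with Feature Extraction's processed signals and 0.17 as the mean over its probes. The deposited value table gave -0.29, from the brightest Rplp0 probe that holds values there, which may be another probe. The genes nearest to Per2 in the plane of the 2 ratios were Vwa5a, Appl2 and Haghl, at distances of 0.012, 0.016 and 0.022, and 42 genes lay within 0.1 of it.

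Promoter windows of 300 bases, 250 before and 50 after each start site, were found in RefSeq (GRCm38.p6) for 9 of the 10 clock genes, in 13 windows; Per2 was not among them. They were searched on both strands for the E-box CACGTG, the related element CACGTT, the D-box as TTATGTAA or TTACGTAA, the ROR element TAGGTCA and the cyclic AMP element TGACGTCA. No matches found in the clock genes overlapped one another. The E-box was found for 2 genes, Cry1 and Per1, against 8.09% of all 27025 genes with a window, and CACGTT for 3, Cry1, Cry2 and Nr1d1, against 5.44%. TTATGTAA was found for Per3 alone, against 1.11%, and TAGGTCA for Arntl alone, 30 bases after a start, against 2.97%. TTACGTAA (0.126% of genes) and TGACGTCA (2.03%) were found in none of them, and neither were any of the motifs in the windows of Clock, Dbp and Nr1d2. The stretches before the start that hold a match are shown because CLOCK and ARNTL or DBP act through such elements, with each motif in capitals and 40 bases on either side where the window allows.
Cry1 (chr10:85185069-85185173, minus strand): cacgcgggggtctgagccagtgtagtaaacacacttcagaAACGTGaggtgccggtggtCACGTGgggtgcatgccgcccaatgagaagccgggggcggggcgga
Cry2 (chr2:92434190-92434275, minus strand): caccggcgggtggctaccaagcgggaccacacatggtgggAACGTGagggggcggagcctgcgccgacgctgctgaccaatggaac
Per1 (chr11:69098743-69098828, plus strand): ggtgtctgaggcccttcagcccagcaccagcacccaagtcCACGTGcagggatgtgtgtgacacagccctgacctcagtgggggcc
Nr1d1 (chr11:98775378-98775445, minus strand): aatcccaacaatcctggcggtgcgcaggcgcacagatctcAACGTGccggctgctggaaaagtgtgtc
Per3 (chr4:151044776-151044910, minus strand): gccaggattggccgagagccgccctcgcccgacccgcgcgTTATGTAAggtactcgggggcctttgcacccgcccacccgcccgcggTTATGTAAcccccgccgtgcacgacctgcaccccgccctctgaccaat
Genes with an E-box or CACGTT match in these windows had mean ratios from -0.14 (Cry1) to 0.35 (Cry2). Those with a window but without such a match had mean ratios from -0.54 (Clock) to 0.48 (Dbp). Elements outside the windows were not searched. A match is a description of letters, not of binding.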

How the data were processed

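Members and lists were chosen with earlier results of these data known. The submitters' processing notes name Agilent Feature Extraction 9.5.3.1. Per the file headers, mean and background intensity per spot and colour were deposited unsubtracted, with processed intensity values (background-subtracted, dye-normalized), a log10 ratio of Cy5 over Cy3, a single-array p-value and 0 or 1 flags. The deposited value table holds log2 ratios that match the log10 ratio, turned to log2, to 0.001 in 99.4% of its values on each array, with a median of 0; the reason for its blanks is unknown.

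Here signals were corrected by normexp (offset 50) and normalized by loess (span 0.3, controls at weight 0) in limma 3.58.1 under R 4.3.3. Outlier spots (154 and 237) were left out, spots of a probe averaged, and channel levels quantile-scaled on mean intensity (Aquantile). Probes were named through RefSeq (23357 by accession, 6734 by symbol, 2907 by synonym; 8158 kept the file's name). A probe whose Cy5 or Cy3 signal was well above background on each array was tested against 0 (lmFit, eBayes, two-sided, Benjamini-Hochberg over 27006 probes). A gene is its brightest tested probe. Named genes: all members, the 3 largest absolute means per other list, all reference genes, and the 3 genes nearest the member with the largest mean. Some genes that this rule names are not reported here.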

Additional observations from a re-analysis of the deposited data

How the results depend on the processing

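With both RNAs on each array, every log2 ratio is itself a paired comparison, and limma tested these ratios against 0. The study has 1 group of ratios, so no further pairing was available. Leaving out an array gives a value with no test. Median centring of each array called 4482 probes in all and 5 clock probes, and Feature Extraction's p-value on both arrays called 1000 and 2; with the processed signals, the deposited table, no filter, both channels above background, or 1 probe per gene, limma called 0 and 0. Median centring gave list medians of 0.50 for the clock genes, 0.38 for the other loop genes, 0.35 for kinases and turnover, 0.29 for corepressors, 0.18 for outputs and 0.42 for immediate early genes. Relative to all genes there (added after seeing the data) the medians were 0.081 for corepressors, -0.037 for outputs and 0.20 for immediate early genes. Kinases and turnover had 0.028 in the deposited table. Outputs had -0.14 with processed signals and -0.068 as the mean over probes. Immediate early genes had 0.090 with processed signals, 0.092 in the deposited table and 0.12 over probes. Without 1 array the medians ran from 0.14 to 0.31 for clock genes, 0.13 to 0.27 for other loop genes, 0.025 to 0.11 for kinases and turnover, -0.12 to -0.016 for corepressors, -0.041 to -0.0011 for outputs and 0.13 to 0.14 for immediate early genes. Per3 had -0.037 without replicate 2 and 0.28 without replicate 1, and Cry1 had 0.068 under median centring. Under median centring Per2 (0.96), Dbp (0.82), Per1 (0.52), Cry2 (0.52) and Nr1d1 (0.48) passed, with adjusted p-values in limma from 0.0257 to 0.0450, where all genes had a median of 0.21. The causes were not tested. Over the 2 arrays 1 residual degree of freedom limits every test.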
